A study of Drosophila melanogaster with 36 samples.

Results

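The 10 maltase genes of Drosophila melanogaster, Mal-A1 to Mal-A8, Mal-B1 and Mal-B2, were followed through the life cycle by the signal at their transcription start sites. They were chosen by name, and all 10 were found among the 12698 genes measured, of which 12089 carried a symbol. Start sites were profiled with RAMPAGE, which sequences the 5′ ends of capped RNA, in pools of whole animals of the y; cn bw sp strain. The 36 libraries, 1 per stage, comprised 24 hourly windows of embryos aged 0 to 24 h after egg laying, 5 larval stages, 5 pupal stages and adults of each sex kept for 5 days after sorting. The larval stages were L1 larvae aged 42 h, L2 larvae aged 66 h, and wandering L3 larvae fed a blue dye and sorted into dark, light and clear gut. Pupae were collected 1 to 5 days after the white prepupa, the immobile form that opens metamorphosis, and no animal received any other treatment.

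Maltases are α-glucosidases, enzymes that release glucose from maltose and related short sugars. In insects they complete the digestion of starch that amylase begins, and in flies they are best known from the midgut of the feeding larva and adult. Eggs are supplied by the mother with RNA that is cleared as the embryo starts to transcribe its own genome, and the embryonic midgut differentiates late in embryogenesis, before feeding starts. The larval midgut is discarded at metamorphosis and replaced by an adult one. Separate substrates of the 10 enzymes are not given by the annotation used here, so the genes are described by their place in the genome and their time of expression.

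Values are reads per 1000000 reads in gene start-site peaks (RPM), and whole reads could be recovered from them. RAMPAGE counts 5′ ends, so levels are not divided by transcript length. Embryo libraries held 698702 to 11856035 recovered reads, larval ones 873086 to 14259966 and pupal ones 1066282 to 16690598, while the male library held 8790853 and the female library 11281352. A gene with no read could therefore still lie as high as 0.253 to 4.29 RPM in an embryo library, 0.21 to 3.44 RPM in a larval one and 0.341 or 0.266 RPM in the male or female one, taking 3 reads as the limit that a count of 0 allows. Embryos, larvae with pupae, and adults were 3 separate multiplexed libraries, and adult RNA was extracted with a different reagent, so levels are not tested across these 3 sets. All 5 pupal columns listed every gene of the minus strand at 0, whereas the minus strand made up 48.73 to 56.6% of each of the remaining 31 columns. Mal-A1, Mal-A3 and Mal-A7 lie on the minus strand and have no usable pupal value.

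The genes fell into 2 clusters on dm3. The Mal-A cluster spanned 20089 bp, chr2R:4339385-4359473, and every one of the 9 start-site peaks in that stretch belonged to 1 of the 8 Mal-A genes. The Mal-B cluster spanned 3138 bp, chr2L:11847202-11850339, and held 3 peaks of 2 genes. From low to high coordinate the Mal-A order was Mal-A1 on the minus strand (peak chr2R:4339385-4339419), Mal-A2 on the plus strand (chr2R:4341132-4341145), Mal-A3 on the minus strand (chr2R:4345367-4345394), Mal-A4 on the plus strand (chr2R:4346315-4346325), Mal-A5 and Mal-A6 on the plus strand, Mal-A7 on the minus strand (chr2R:4359150-4359174) and Mal-A8 on the plus strand (chr2R:4359459-4359473). Mal-A1 with Mal-A2, Mal-A3 with Mal-A4, and Mal-A7 with Mal-A8 were thus divergent pairs, their peaks 1712, 920 and 284 bp apart.

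Mal-A5 and Mal-B2 each had 2 start-site peaks, and the other 8 genes had 1. The authors' peak score put 85.1% of the Mal-A5 total on the upstream peak (chr2R:4350240-4350296, score 1504) and 14.9% on the downstream one (chr2R:4351520-4351568, score 263). Mal-B2 was divided 64.1% to 35.9% between chr2L:11849966-11850027 and chr2L:11850316-11850339. The sources used here do not say what the score counts, and the expression table gives 1 value per gene, so the start sites could not be followed by stage. The single peak of Mal-A6 lay at chr2R:4352662-4352675 and that of Mal-B1 at chr2L:11847202-11847206.

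Placed by the embryonic hour at which each was highest, the maltases split into early and late members. Mal-A5 was highest at 0 to 1 h and Mal-B2 at 3 to 4 h, and these are called early members here. Mal-B1 was highest at 15 to 16 h. The other 7 genes, Mal-A1, Mal-A2, Mal-A3, Mal-A4, Mal-A6, Mal-A7 and Mal-A8, were highest after 16 h. This division was read from the values themselves and is a description. The highest embryo values of Mal-A2 and Mal-A7 rest on 7 and 2 reads. For Mal-B1, the 95% Poisson interval of the reads at 15 to 16 h (1.56 to 6.47 RPM) overlaps that at 19 to 20 h (0.639 to 9.05 RPM). The places of Mal-A2, Mal-A7 and Mal-B1 are therefore uncertain.

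**Figure D1:**
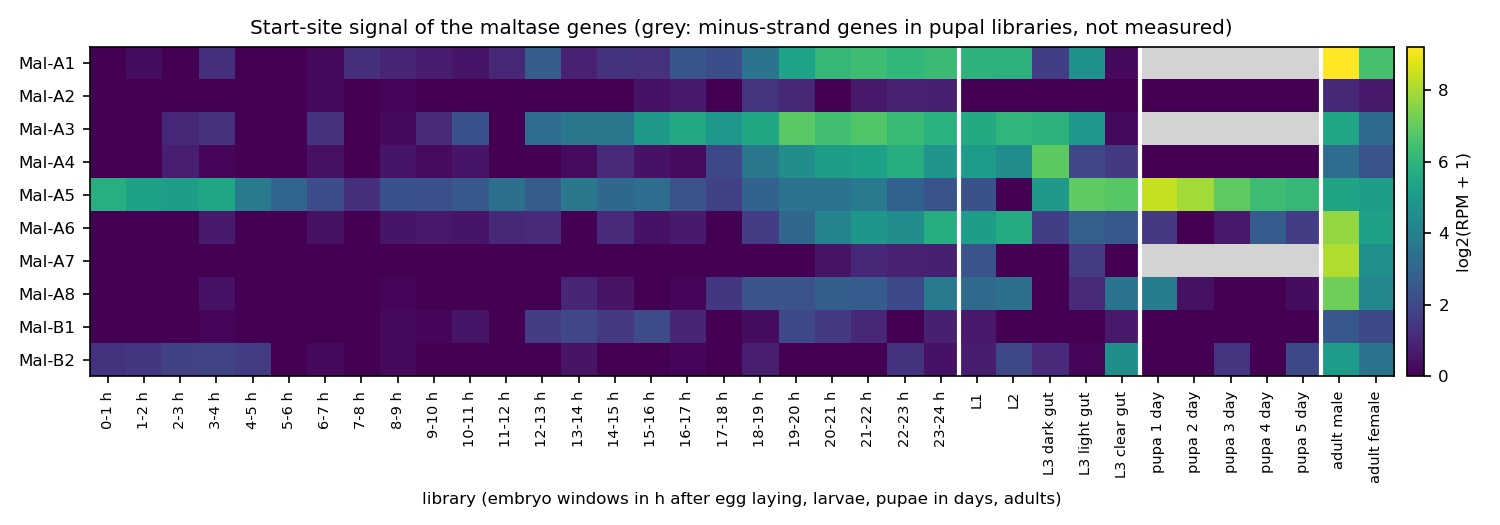
Start-site signal of the 10 maltase genes, as log2(RPM + 1) in colour, with 1 column per library and white lines between embryos, larvae, pupae and adults. The Mal-A5 row is bright at 0 to 4 h, from the L3 stages through the pupae and in adults, while most other Mal-A rows brighten after 16 h, and grey cells are minus-strand genes that the pupal columns list at 0.

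In the first 4 h after egg laying nearly all maltase signal came from Mal-A5. The hourly values were 53.9, 37.6, 35.3 and 42.0 RPM at 0 to 4 h, and 12.4, 7.10, 3.52 and 1.43 RPM at 4 to 8 h. Every library of the first 4 hours lay above every library of the next 4. The mean was 42.2 ± 8.29 RPM (SD, n = 4 hourly libraries) at 0 to 4 h and 6.12 ± 4.82 RPM at 4 to 8 h. Mal-A5 fell by 2.86 ± 0.48 (SE) on the log2(RPM + 1) scale, with an adjusted p of 0.000223 in limma, whose two-sided test weighed the difference against the spread between neighbouring hours. The test covered genes that reached 2 RPM in 3 or more embryo libraries. A gene was called when the adjusted p was below 0.05 and the change at least 2-fold.

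Mal-A5 made up 86.1 to 97.2% of the summed maltase signal in the 4 libraries of 0 to 4 h. It did not reach 0 in any embryo library. From 8 h on it stayed between 2.40 and 13.0 RPM, and no later step between 4 h groups was called for it. The 4 of 6 maternal and germ line markers that the table holds (bcd, gnu, osk and pgc) summed to between 171 and 3948 RPM over the first 4 h, and over the next 4 h to between 44.4 and 125 RPM. Over the first 4 h their sum went down from library to library, from 3948 to 171 RPM.

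Mal-B2 was the other early member. Its values were 1.53, 1.74, 2.47 and 2.68 RPM at 0 to 4 h, then 2.03, 0, 0.168 and 0 RPM at 4 to 8 h. The values of the first 4 h were highest in the 3 to 4 h library, at the hour when the maternal and germ line markers had their lowest sum of that group. However, these Mal-B2 values rest on 14, 7, 7 and 23 reads. Their 95% Poisson intervals overlap, from 0.837 to 2.57 RPM at 0 to 1 h and from 1.70 to 4.02 RPM at 3 to 4 h, so their order is not settled. The 4 to 5 h library lay inside the range of the first 4 hours, so the groups overlapped. The mean went from 2.11 ± 0.56 to 0.548 ± 0.988 RPM (SD, n = 4 each), a fall of 1.16 ± 0.34 on the log2 scale with a limma adjusted p of 0.0184. The call was lost with edgeR on the recovered reads (adjusted p = 0.25), with the 8 compared libraries alone (0.154), and without the 5 to 6 h (0.0693), 6 to 7 h (0.0567) or 7 to 8 h (0.0698) library. Without the 2 to 3 h, 3 to 4 h or 4 to 5 h library, or after median-of-ratios scaling, Mal-B2 missed the filter and could not be tested.

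Of the 8 maltases tested, Mal-A5 and Mal-B2 were called lower in this step and 0 higher, where 8.53% of the 9940 genes tested were called lower and 9.3% higher. Mal-A2 and Mal-A7 did not pass the filter, and Mal-B2 passed it only through the libraries of 2 to 5 h, so its place in this count is not independent of its early level. In whole animals, fewer cells that hold an RNA and less of that RNA per cell cannot be told apart. The 3 to 4 h library stood apart from the other 3 early ones. Reads of 8 of the 10 maltases were present in it, against 2 to 4 in the others, 19 of the 31 other digestive enzymes in the table had a read in it, against 2 to 8, and 7 midgut markers summed to 145 RPM in it, against 15.7 to 35.6 RPM. Without this library the change of Mal-A5 was -2.85, with an adjusted p of 0.000243.

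Genes listed for sugar digestion and uptake moved in both directions in this step. The list holds 30 genes, and some have other roles, slif and sug among them. Between 0 to 4 h and 4 to 8 h 19 were tested, and 4 rose and 3 fell, with a median log2 change of 0.41 against 0.0 over all genes. The largest called changes were in slif, an amino acid transporter gene, from 58.5 ± 63.2 to 0.844 ± 0.817 RPM, Tret1-1, a trehalose transporter gene, from 2.26 ± 1.36 to 37.5 ± 36.1 RPM, Hex-A, which encodes a hexokinase, from 265 ± 160 to 29.3 ± 10.3 RPM, and sug, which encodes a sugar-regulated transcription factor, from 0.659 ± 0.416 to 10.8 ± 6.98 RPM (SD, n = 4 each). Among 34 genes listed as other digestive enzymes, 26 were tested, 1 rose and 0 fell. Not all of that list are enzymes, as it holds the sterol-binding protein gene Npc2d.

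**Figure D2:**
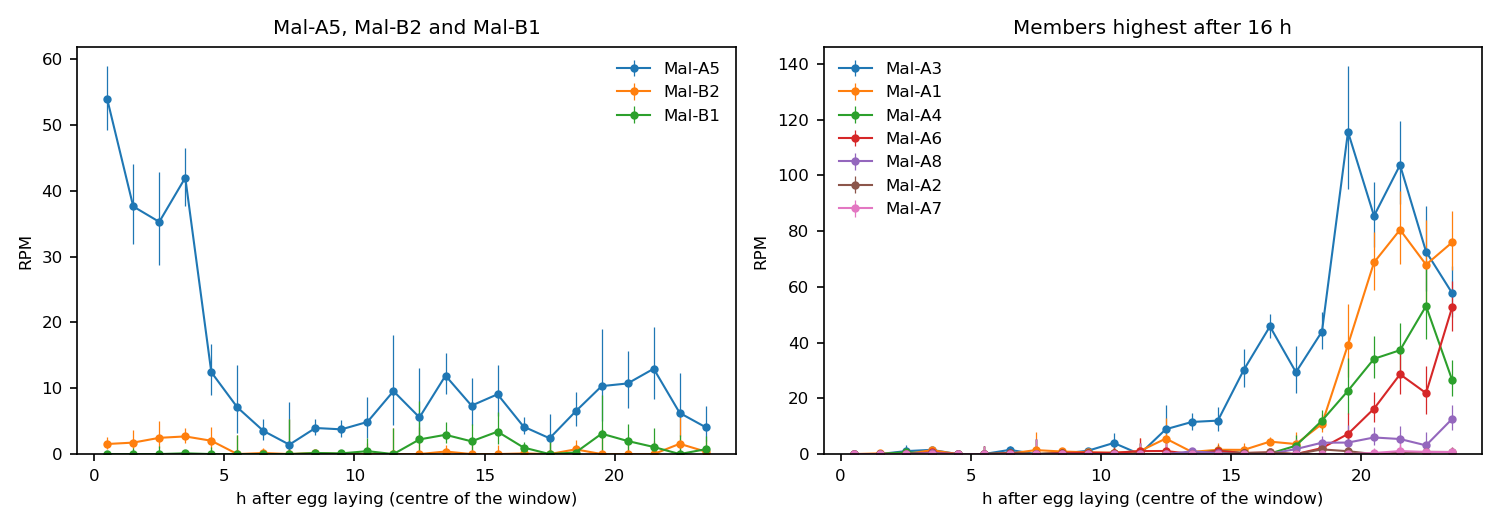
RPM of the maltase genes in the 24 hourly embryo libraries, plotted at the centre of each window, with bars for the 95% Poisson interval of the recovered reads. The left panel shows Mal-A5 falling from 53.9 RPM at 0 to 1 h to 1.43 RPM at 7 to 8 h. In the right panel Mal-A3 leaves the baseline before Mal-A1 and Mal-A4, Mal-A6 rises later, and Mal-A8 does not exceed 12.6 RPM.

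Between 4 to 8 h and 8 to 12 h no maltase moved past the threshold. With limma, 0 of the 8 tested were called, against 14.1% of all genes called higher and 3.3% called lower. No maltase had an unadjusted p below 0.05 in this step, and edgeR also called 0. The summed maltase signal lay between 2.86 and 14.5 RPM at 4 to 8 h. At 8 to 12 h it lay between 6.41 and 11.7 RPM, and these were the lowest embryonic groups. In the same step 6 of the 26 tested digestive enzymes rose and 0 fell, led by the serine protease genes Jon25Bi, from 4.55 ± 8.43 to 47.4 ± 21.1 RPM, and Jon99Fi, from 1.77 ± 2.71 to 29.3 ± 5.52 RPM (SD, n = 4 each).

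Mal-A3 was the first of the late members to appear. Its values were 0.169, 1.18, 4.00 and 0 RPM at 8 to 12 h, and 8.91, 11.5, 12.0 and 30.3 RPM at 12 to 16 h. No library of the earlier group reached the lowest of the later one. The mean rose from 1.34 ± 1.85 to 15.7 ± 9.83 RPM, a change of 2.99 ± 0.52 on the log2 scale with a limma adjusted p of 0.00061.

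Mal-B1 appeared in the same hours at a lower level. Its values were 0.169, 0.107, 0.444 and 0 RPM at 8 to 12 h, and 2.23, 2.93, 1.94 and 3.41 RPM at 12 to 16 h, again without overlap. The mean rose from 0.18 ± 0.189 to 2.63 ± 0.667 RPM, by 1.61 ± 0.35 on the log2 scale with a limma adjusted p of 0.00323, and the 12 to 16 h values rest on 31 reads in all. Both rises were called under each of the alternatives run, although Mal-B1 reached the 2 RPM of the filter in 4 embryo libraries, 3 of them in the 12 to 16 h group, and so could enter the test mainly by being high there. Mal-A3 and Mal-B1 were 2 of 8 maltases called higher, where 10.8% of all genes were called higher and 4.84% lower. In the list of sugar digestion and uptake limma called 0 of 19, with 0 at an unadjusted p below 0.05, and edgeR called 1.

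From 16 h the level of Mal-A3 rose further, and Mal-A1, Mal-A4 and Mal-A8 followed. Mal-A3 was at 45.8, 29.4, 44.0 and 116 RPM at 16 to 20 h, and its mean of 58.7 ± 38.7 RPM was higher than at 12 to 16 h by 1.80 ± 0.52 on the log2 scale (limma adjusted p = 0.0139). Mal-A1 was at 5.57, 0.781, 1.55 and 1.51 RPM at 12 to 16 h, and at 4.47, 3.60, 10.8 and 39.2 RPM over the next 4 h. The groups overlapped for both genes, as Mal-A1 at 12 to 13 h lay above its values at 16 to 18 h and Mal-A3 at 15 to 16 h above its value at 17 to 18 h.

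Mal-A1 rose by 1.83 ± 0.52 on the log2 scale (limma adjusted p = 0.0131). Mal-A4 went from 0, 0.195, 1.16 and 0.379 RPM to 0.199, 3.00, 12.0 and 22.7 RPM, a rise of 2.17 ± 0.56 (limma adjusted p = 0.00714). Mal-A8 went from a mean of 0.341 ± 0.462 to 2.53 ± 1.95 RPM, a rise of 1.22 ± 0.40 (limma adjusted p = 0.0264). Mal-B1 fell by 1.00 ± 0.35 to 1.08 ± 1.41 RPM (limma adjusted p = 0.0373), but after median-of-ratios scaling its change was -0.74 with an adjusted p of 0.222. All 4 rises kept their direction in every alternative run.

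Each of these 5 calls was lost under at least 1 alternative. The Mal-A3 call was lost with edgeR on the recovered reads (adjusted p = 0.0793) and without the 19 to 20 h library (0.0586). The Mal-A1 call was lost with the 8 compared libraries alone (0.0818), without the 13 to 14 h library (0.0522) and without the 19 to 20 h library (0.0611), and that of Mal-A4 with the 8 libraries alone (0.0789). The Mal-A8 call was lost with edgeR (0.123), could not be tested with the 8 libraries alone, where it missed the filter, and was lost without the 12 to 13 h, 15 to 16 h, 18 to 19 h or 19 to 20 h library (0.06 to 0.0985). The Mal-B1 call was lost in 2 further settings, edgeR (0.134) and the 8 libraries alone (0.147), and without the 12 to 13 h, 13 to 14 h, 15 to 16 h, 17 to 18 h or 18 to 19 h library (0.056 to 0.148).

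In this step 4 maltases were called higher and 1 lower of 8 tested, against 8.49% and 16.9% of all genes, and edgeR called 2 higher and 0 lower. The median of all genes moved by -0.5 on the log2 scale, and by 0.12 after median-of-ratios scaling, so the rises are the larger relative to that shift. Of the 26 genes tested in the list of other digestive enzymes, 13 rose and 2 fell. Among those that rose, Npc2d, a sterol-binding protein gene, went from 2.21 ± 1.90 to 41.7 ± 14.4 RPM. Jon65Aiv, a protease gene, went from 6.79 ± 8.57 to 103 ± 85.5 RPM. Of the 19 genes of sugar digestion and uptake tested, 3 rose and 2 fell, and Amy-p, which encodes an amylase, rose from 3.02 ± 2.16 to 20.0 ± 16.7 RPM (SD, n = 4 each). Over the same hours the midgut markers showed no such step, with sums of 140 to 322 RPM before 16 h and of 142 to 224 RPM after it.

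In the last 4 h of the embryo series Mal-A6 joined the others. It was at 0.596, 0, 2.16 and 7.23 RPM at 16 to 20 h, and at 16.3, 28.6, 21.9 and 52.6 RPM at 20 to 24 h. The groups did not overlap, and the mean rose from 2.50 ± 3.28 to 29.9 ± 16.0 RPM. The change was 3.47 ± 0.47 on the log2 scale (limma adjusted p = 4.3e-05), and it was called under each of the alternatives run.

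Mal-A1 and Mal-A4 also rose again. Mal-A1 stood at 68.8, 80.5, 68.0 and 75.9 RPM at 20 to 24 h, all above its 16 to 20 h values, and its mean of 73.3 ± 5.99 RPM was higher by 2.83 ± 0.52 (limma adjusted p = 0.000864). Mal-A4 stood at 34.2, 37.3, 53.1 and 26.7 RPM, also without overlap, and its mean of 37.8 ± 11.1 RPM was higher by 2.60 ± 0.56 (limma adjusted p = 0.00353). With edgeR on the recovered reads the adjusted p was 0.0588 for Mal-A1 and 0.153 for Mal-A4, and with the 8 compared libraries alone it was 0.076 for Mal-A4.

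Mal-A8 was at 5.96, 5.40, 3.12 and 12.6 RPM at 20 to 24 h, and its change of 1.24 ± 0.40 did not pass the threshold (limma adjusted p = 0.0611). It passed without a filter on low values (0.0455) and without the 18 to 19 h (0.03), 19 to 20 h (0.0169) or 22 to 23 h (0.036) library. Mal-A3 was at 85.5, 104, 72.6 and 57.8 RPM, and its change of 0.60 ± 0.52 was not called (limma adjusted p = 0.65). Mal-A2 and Mal-A7, not tested, reached 1.68 RPM at 18 to 19 h and 1.08 RPM at 21 to 22 h, and Mal-A7 had no read before 20 h. Mal-A1, Mal-A4 and Mal-A6 were 3 of 8 called higher, where 4.52% of all genes were called higher and 2.27% lower, and edgeR called 1.

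The counts of rising members carry a limit. The libraries in which Mal-A4, Mal-A6 and Mal-A8 reached the 2 RPM of the filter all lie after 16 h. These genes could thus enter the test only by being high late, as Mal-B2 entered by being high early. Mal-A1 reached 2 RPM in 9 embryo libraries, all after 16 h but for that of 12 to 13 h. Mal-A3 reached it in 13, all after 12 h but for that of 10 to 11 h. Neither Mal-A1 nor Mal-A3 could have passed the filter without these later libraries. By the hour at which 10 RPM was first reached after 4 h, Mal-A3 came at 13 to 14 h (11.5 RPM, 59 reads), Mal-A1 and Mal-A4 at 18 to 19 h (10.8 and 12.0 RPM, 45 and 50 reads), Mal-A6 at 20 to 21 h (16.3 RPM, 41 reads) and Mal-A8 at 23 to 24 h (12.6 RPM, 34 reads). The 95% Poisson intervals of Mal-A1 (7.89 to 14.5 RPM) and Mal-A4 (8.91 to 15.8 RPM) at 18 to 19 h overlap, so those genes are not ordered. These intervals cover counting error only, since reads are not known to be independent molecules.

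Other genes, not all of them of sugar digestion, rose in these hours too. Of 19 genes tested in the list of sugar digestion and uptake, 3 rose and 0 fell between 16 to 20 h and 20 to 24 h. They were Amy-p, from 20.0 ± 16.7 to 308 ± 200 RPM, LManVI, an α-mannosidase gene, from 3.52 ± 5.36 to 18.1 ± 8.80 RPM, and Amyrel, an amylase-related gene, from 0.0497 ± 0.0994 to 4.84 ± 2.92 RPM (SD, n = 4 each). Of 26 other digestive enzymes tested, 13 rose and 1 fell. The largest changes were in the protease genes Jon25Bi, from 136 ± 103 to 4041 ± 4698 RPM, and Jon99Fi, from 179 ± 212 to 2793 ± 1894 RPM, and in the lysozyme genes LysE and LysS, to 411 ± 287 and 714 ± 751 RPM. Midgut markers summed to between 158 and 193 RPM at 20 to 24 h, within the 142 to 224 RPM of the previous group. All 7 were above 0 in each library of 20 to 24 h, against 6 or 7 per library at 16 to 20 h.

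By 20 to 24 h the makeup of the maltase signal had changed. The summed level was 224 to 271 RPM, against 39.5 to 55.4 RPM at 0 to 4 h. Mal-A5 supplied 1.8 to 4.8% of it, and the single leading gene in each library, either Mal-A3 or Mal-A1, supplied 31.8 to 38.2%.

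**Figure D3:**
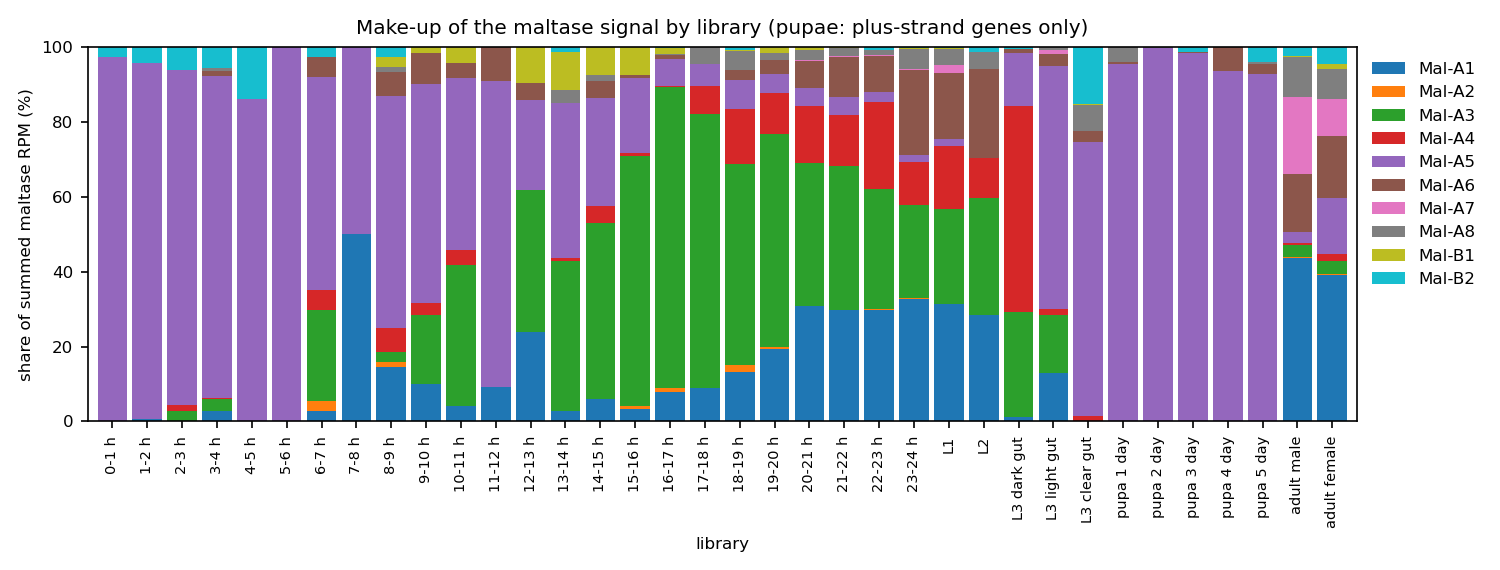
Share of the summed maltase RPM that each gene supplied in each of the 36 libraries, in percent. Mal-A5 supplies 86.1 to 97.2% at 0 to 4 h and 1.8 to 4.8% at 20 to 24 h, and 92.7 to 99.9% in pupae, where minus-strand genes are missing.

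In larvae the summed maltase signal stayed between 154 and 212 RPM while its makeup turned over. In L1 and L2 larvae 4 late members led, with Mal-A1 at 60.4 and 59.4 RPM, Mal-A3 at 48.9 and 65.4 RPM, Mal-A6 at 33.9 and 49.8 RPM and Mal-A4 at 32.3 and 22.2 RPM. Mal-A5 was at 3.93 RPM in L1 and had no read in L2, where 3 reads amount to 0.391 RPM.

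In the L3 stages Mal-A5 was at 29.8, 123 and 113 RPM in the dark, light and clear gut libraries, above both younger stages in each. It led the maltases in the light and clear gut libraries, while Mal-A4 and Mal-A3 lay above it in the dark gut one. Mal-A3 was at 59.6, 29.2 and 0.178 RPM, so it was at the level of the younger larvae in the dark gut library and down to 1 read in the clear gut one. Mal-A1 was at 2.29, 24.8 and 0.178 RPM, and Mal-A6 at 2.29, 6.10 and 4.81 RPM, the first of each set resting on 2 reads of the shallowest larval library.

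Mal-A4 and Mal-B2 each had a single high larval library. Mal-A4 was at 117 RPM in the dark gut library (102 reads, 95% Poisson interval 95.3 to 142 RPM), its highest value anywhere, and at 2.93 and 1.96 RPM in the light and clear gut libraries. The interval covers counting error only. The dark gut library held reads of 5520 genes, against 9063 to 9968 in the other larval libraries. A shallower embryo library, that of 7 to 8 h, held reads of 8132 genes. High values and zeros of the dark gut library carry this limit. Mal-B2 was at 23.3 RPM in the clear gut library and between 0.122 and 3.00 RPM in the other 4. Mal-A8 was at 8.06, 9.51, 0, 1.22 and 10.7 RPM in the order L1, L2, dark, light and clear gut. Mal-A7 did not exceed 4.07 RPM, Mal-B1 did not exceed 0.561 RPM, and Mal-A2 had no read in any larval library.

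Other tissues' markers moved between these larval libraries too. The 5 fat body markers summed to 777 RPM in L1, 1576 RPM in L2 and 39563, 16180 and 18769 RPM in the L3 dark, light and clear gut libraries. The 31 other digestive enzymes summed to 29697, 33377, 12845, 17575 and 9170 RPM in the same order, and the 7 midgut markers to 113, 104, 134, 325 and 160 RPM, with lab, Vha100-4 and PGRP-SC1a at 0 in the dark and clear gut libraries. Their part in the maltase values was not tested. Each larval stage had 1 library, so differences between larval stages have no replicate check.

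In pupae nearly all measurable maltase signal was Mal-A5. It stood at 339, 245, 121, 81.0 and 70.2 RPM on days 1 to 5, lower in each library than in the one before. Of the other plus-strand members, Mal-A6 was at 0 to 5.43 RPM, Mal-B2 at 0 to 3.12 RPM and Mal-A8 at 0 to 0.328 RPM except for 14.1 RPM on day 1. Mal-A2, Mal-A4 and Mal-B1 had no read in any pupal library. Mal-A5 made up 92.7 to 99.9% of the summed signal, in which Mal-A1, Mal-A3 and Mal-A7 are missing.

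Larvae and pupae were compared per 1000000 plus-strand reads, which raises the larval values. On this scale Mal-A4 was at 67.0, 47.3, 234, 6.55 and 3.84 in larvae and 0 in all 5 pupal libraries. The larval mean of 71.7 ± 94.6 was at least 25.5-fold higher than the 2.81 that 3 reads amount to in the shallowest pupal library. Without the L3 dark gut library the mean was 31.2 and the bound 11.1-fold, and the clear gut value of 3.84 lay close to that limit. The limma change was -4.95 ± 1.12 on the log2 scale (adjusted p = 0.025), and the groups did not overlap. The call was lost with edgeR on the recovered reads (adjusted p = 0.0597), without the L1, L2 or L3 dark gut library (0.053 to 0.0675) and without the day 2, day 3 or day 4 pupal library (0.0704 to 0.0803).

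Mal-A5 did not pass this test. On the plus-strand scale it was at 8.14, 0, 59.6, 276 and 221 in larvae and at 340, 245, 121, 81.0 and 70.2 in pupae, with overlapping groups, a change of 2.16 ± 1.23 and a limma adjusted p of 0.322. The changes of Mal-A6 (-3.23 ± 1.10, limma adjusted p = 0.108), Mal-A8 (-2.06 ± 1.13, 0.303) and Mal-B2 (-1.66 ± 1.00, 0.35) also missed it. Mal-A4 was thus the 1 of 5 tested maltases called lower, against 1.52% of the 5404 plus-strand genes tested, with 1.48% called higher. With no pupal read, Mal-A4 passed the filter only through larval libraries and could only be called lower. Its place in this count is therefore not independent of its larval level.

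Other digestive enzymes on the plus strand fell between larvae and pupae. With limma, 6 of the 10 tested fell and 0 rose, and their median log2 change was -6.11 against 0.62 over all genes and -2.06 over the 5 tested maltases. Jon99Fi fell from 8983 ± 4496 to 346 ± 751, Jon65Aiii from 1975 ± 1126 to 90.2 ± 198 and LysS from 2206 ± 1438 to 79.1 ± 139 per 1000000 plus-strand reads (SD, n = 5 each). Of 9 genes of sugar digestion and uptake tested, limma called 0, with 0 at an unadjusted p below 0.05. In this comparison edgeR on the recovered reads called 0 genes in either list and 0 of all genes. Fat body markers summed to 25505, 21247, 20001, 11023 and 4098 RPM on days 1 to 5, lower in each library than in the one before as was Mal-A5, with 4 of 5 above 0 and Fbp1 at 0. The midgut markers, of which 2 or 3 of 7 were above 0, summed to 652, 1245, 432, 1265 and 275 RPM on the same days, and the 1 muscle marker above 0 was at 622, 460, 142, 769 and 4441 RPM. These marker sums were not limited to the plus strand, and the pupal columns list every minus-strand gene at 0. A marker at 0 on every pupal day may therefore be unmeasured rather than silent. The part of fat body, midgut and muscle in the Mal-A5 values was not tested.

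**Figure D4:**
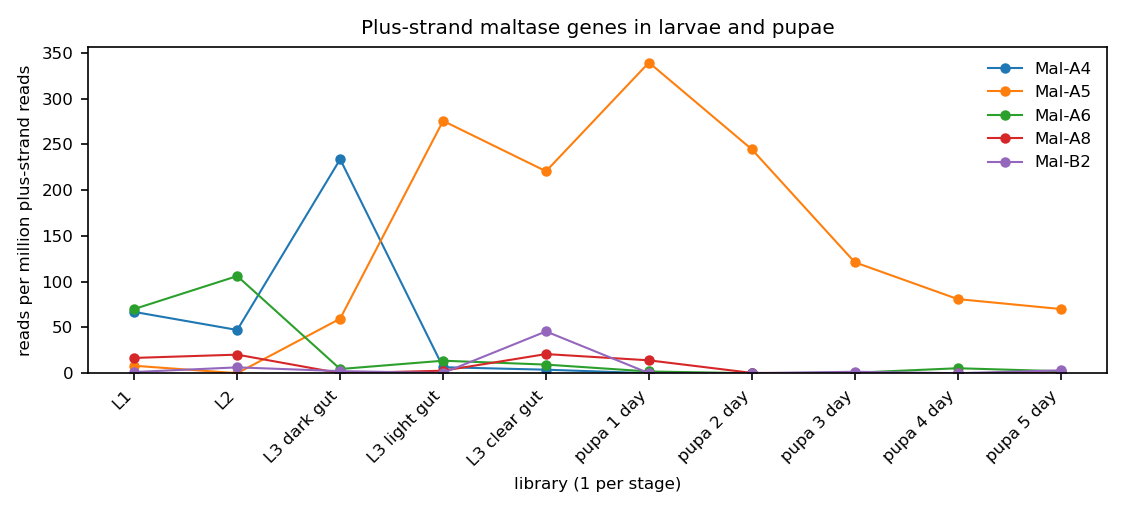
The 5 tested plus-strand maltase genes in the larval and pupal libraries, 1 per stage, in reads per 1000000 plus-strand reads. Mal-A5 is at 276 in the L3 light gut library and 340 on pupal day 1 and then lower each day, whereas Mal-A4 is at 234 in the L3 dark gut library and at 0 in every pupal one.

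In adults the value of every maltase was higher in the male library, and the ratio was highest for Mal-A7. Each sex had 1 library, so no test was made, and the intervals given are 95% Clopper-Pearson intervals that cover counting error only. The summed maltase signal was 1356 RPM in males and 232 RPM in females. Mal-A1 was at 593 RPM in males and 90.9 RPM in females, a ratio of 6.52 (6.10 to 6.98). Mal-A7 was at 277 and 23.4 RPM, a ratio of 11.8 (10.4 to 13.5), after never exceeding 4.07 RPM in embryos or larvae.

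Mal-A6 was at 210 and 38.0 RPM, a ratio of 5.51 (4.96 to 6.14). Mal-A8 was at 144 and 18.3 RPM, a ratio of 7.85 (6.77 to 9.14). Mal-A3 was at 43.2 and 8.33 RPM, a ratio of 5.19 (4.13 to 6.57). Mal-A1, Mal-A7 and Mal-A6 were thus the leading maltases of males, where Mal-A1 ranked 251 and Mal-A6 878 among all genes.

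Mal-A5 was nearly level between the sexes, at 41.1 and 34.7 RPM, a ratio of 1.18 (1.02 to 1.37). Mal-B2 was at 33.3 and 10.6 RPM, a ratio of 3.13 (2.53 to 3.91), and Mal-A4 at 8.76 and 4.25 RPM, a ratio of 2.06 (1.42 to 3.02). The intervals of Mal-B1 (4.66 and 3.10 RPM, 0.934 to 2.43) and Mal-A2 (1.02 and 0.532 RPM, 0.612 to 6.57) include 1. In males the order of levels was Mal-A1, Mal-A7, Mal-A6, Mal-A8, Mal-A3, Mal-A5, Mal-B2, Mal-A4, Mal-B1 and Mal-A2. In females it was Mal-A1, Mal-A6, Mal-A5, Mal-A7, Mal-A8, Mal-B2, Mal-A3, Mal-A4, Mal-B1 and Mal-A2. In males Mal-A3 and Mal-A5, on 380 and 361 reads, are neighbours within counting error.

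Among genes with at least 10 RPM in an adult library, 6 of 7 maltases were at least 2-fold higher in males on the RPM + 1 scale, against 31.9% of 8959 genes, and 0 were at least 2-fold higher in females, against 29.2%. Mal-A3, at 8.33 RPM in females and 43.2 RPM in males, met the 10 RPM level only through the male library. Its place in this count is therefore not independent of its male level. Of 20 other digestive enzymes past the same level, 5 were higher in males and 6 in females, and their sum was 10307 RPM in males and 10872 RPM in females. Within that list the lysozyme gene LysE was at 179 and 13.7 RPM, and Bace, an aspartic protease gene, was at 25.4 and 410 RPM. Of 18 genes of sugar digestion and uptake, 4 were higher in males and 2 in females, with Amy-p at 1334 and 940 RPM and Tret1-1 at 248 and 56.6 RPM. These example genes were chosen after their values were seen.

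The makeup of the adult libraries differed as well. In females the 4 ovary and yolk markers summed to 20684 RPM and the 4 maternal and germ line markers to 1935 RPM, against 50.2 and 2.96 RPM in males. In males the 3 accessory gland and testis markers summed to 4139 RPM, against 0.177 RPM in females. Midgut markers summed to 332 RPM in males and 130 RPM in females, with all 7 above 0 in both. Pepck1 made up most of this, at 284 and 98.8 RPM, and the other 6 summed to 48.5 and 30.7 RPM, with Myo31DF and lab slightly higher in females. Muscle markers summed to 1726 and 677 RPM, fat body markers to 1545 and 995 RPM, and Malpighian tubule markers to 158 RPM in both. Their part in the difference between the sexes was not tested. After median-of-ratios scaling the male to female ratios became 1.203 times as large, 7.84 for Mal-A1, 14.2 for Mal-A7 and 1.42 for Mal-A5.

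**Figure D5:**
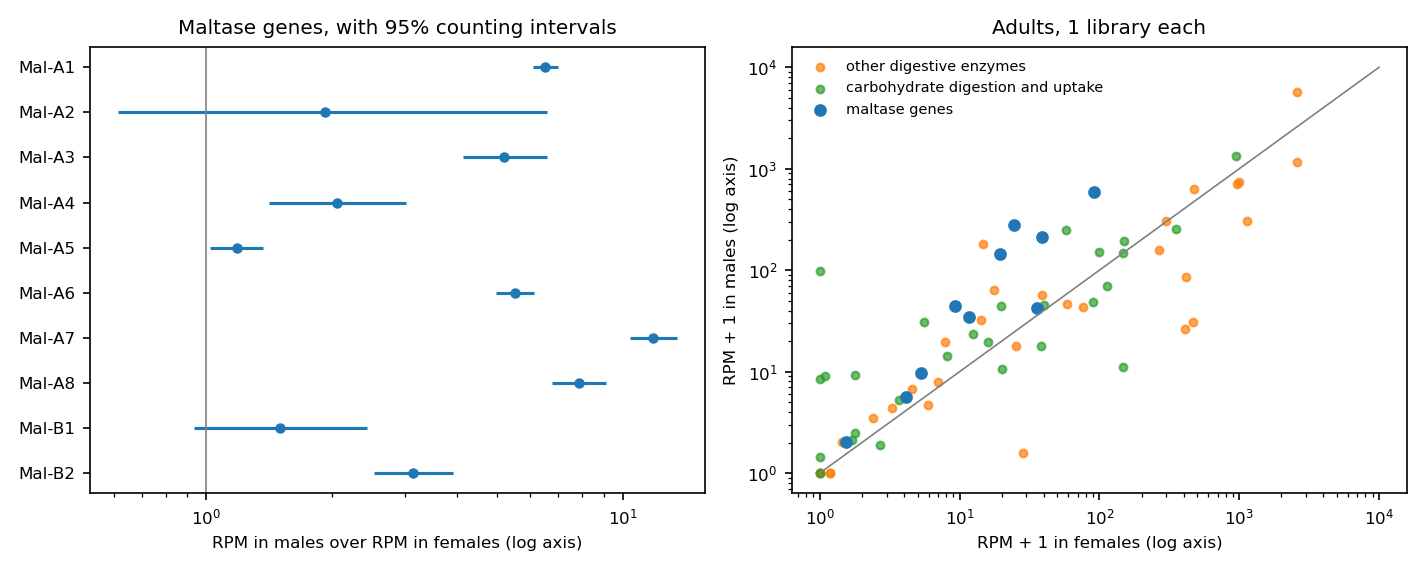
Left, the ratio of RPM in the male library to RPM in the female library for each maltase gene, on a log axis with 95% counting intervals. Right, RPM + 1 in males against females on log axes for the maltases, the other digestive enzymes and the genes of sugar digestion and uptake, where the line marks equal levels and every maltase lies above it.

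Neighbours in the cluster did not share 1 course. Over the 31 libraries other than pupae, Pearson's r of log2(RPM + 1) was 0.80 for the divergent pair Mal-A3 and Mal-A4, 0.77 for Mal-A7 and Mal-A8, and 0.58 for Mal-A1 and Mal-A2. Mal-A1 and Mal-A6, which lie apart with 4 genes between them, had 0.94. Mal-A5 and its neighbour Mal-A6 had 0.03, and Mal-A5 against the 7 late members had -0.18 to 0.29. Mal-A5 and Mal-B2, on different chromosome arms, had 0.52. Most of these libraries are successive stages, those of embryos, of larvae and of adults were each multiplexed apart, and depth varied from 698702 to 14259966 reads, so the correlations are descriptions.

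The divergent pairs differed in which stage used which partner. Mal-A7 and Mal-A8, whose peaks lie 284 bp apart, were both among the 4 highest maltases of males, at 277 and 144 RPM. In embryos at 20 to 24 h Mal-A8 was at 3.12 to 12.6 RPM and Mal-A7 at 0.397 to 1.08 RPM. Mal-A1 was the leading maltase of adults, while its partner Mal-A2 had 36 reads in all 36 libraries together. Mal-A3 and Mal-A4 rose within the same part of embryogenesis, but Mal-A3 passed 10 RPM 5 hourly windows earlier.

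The 7 members that reached 10 RPM in 3 or more libraries were set against 5362 named genes over the same 31 libraries, and the 3 genes with the highest Pearson's r were taken for each. These likenesses are descriptions as well. Mal-A1 was most like salt (r = 0.94), Cyp4p1 (0.926) and Tat (0.917), Mal-A6 most like Tat (0.939), Kaz1-ORFB (0.906) and Amy-p (0.901), and Mal-A8 most like the trypsin gene alphaTry (0.87), Kaz1-ORFB (0.869) and Miox (0.854). Mal-A3 was most like Ac76E (0.93), Cyp28d1 (0.921) and PGRP-LB (0.918), and Mal-A4 most like Cyp4d14 (0.931), Obp49a (0.913) and Acsx1R (0.912).

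Mal-A5 had no close match. Its highest values were 0.738 for Lerp, 0.729 for dob, a lipase-related gene, and 0.714 for the small heat-shock gene Hsp26, itself highest at 0 to 1 h. Mal-B2 was most like Drsl5 (0.855) and CtsL3 (0.809), both highest in the L3 clear gut library, and the lysozyme gene LysP (0.8). The early members thus differed in the genes they resembled over these 31 libraries as well as in level. Mal-B2 reached 10 RPM only in the L3 clear gut, male and female libraries, however. Over the 24 embryo libraries alone, where Mal-B2 did not exceed 2.68 RPM, Mal-A5 and Mal-B2 had an r of 0.71.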

How the data were processed

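Start-site signal per gene was deposited in RPM, scaled by the authors to 1000000 reads in genic peaks per library, per the file headers and column sums. The submitters' processing notes name STAR, Cufflinks and the build dm3, without versions or roles. How reads were counted and whether duplicates were removed is not stated. Peak positions and a score per peak, whose meaning is not stated, were deposited by the authors as lists pooled over the series, and starts are counted from 1 here. Every value was a whole multiple of the value of 1 read within 0.01 read, and whole reads were recovered from these steps, less certainly at 16 to 17 h. The value columns all belonged to labelled samples, so 0 were set aside.

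Members were matched by gene identifier to symbols of a later annotation, used for names only. The members, gene lists and cell type markers were chosen with earlier results of these data known. All 10 maltases are reported. Up to 4 genes of a list are named, those with the largest called change, and the 3 named genes with the highest Pearson's r are given for each member that reached 10 RPM in 3 or more libraries.

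Embryo libraries formed 6 groups of 4 successive hours. Adjacent groups were compared on log2(RPM + 1) with limma 3.58.1 in R 4.3.3 in 1 fit of 24 libraries, and Benjamini-Hochberg adjustment ran over all genes tested. Larvae and pupae were compared on plus-strand genes scaled to 1000000. Libraries of a group are different stages, not replicates, so p-values weigh a step against change within groups, and stages without repeats limit every test. Alternatives were an added constant of 0.5, no filter, median-of-ratios scaling, edgeR 4.0.16 on the recovered reads, the compared libraries alone and leaving out each library. The fits were tested on simulated data. Intervals and figures used Python 3.11.15, SciPy 1.17.1 and matplotlib 3.10.9. No sequences are shown.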

Additional observations from a re-analysis of the deposited data

Results flagged for a closer look

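In 35 sets of 4 or 5 libraries of 1 gene, 6 held a library far from the others by Dixon's gap test. By chance that test flags about 1 of 20 sets of independent, normally distributed replicates. These sets are not such replicates and share libraries, so the count cannot be weighed against that rate. The libraries of a set are different stages, so a far value can be a course through time as well as a stray library, and neither was tested. Mal-A4 was at 116.8 RPM in the L3 dark gut library, against a median of 12.5 RPM in the other larvae. Mal-B2 was at 23.3 RPM in the L3 clear gut library, against 0.888 RPM. Mal-A8 was at 14.1 RPM on pupal day 1, against 0.120 RPM on the other days. In embryos, Mal-A3 was at 30.3 RPM at 15 to 16 h, against 11.5 RPM in the rest of the 12 to 16 h group, Mal-A1 was at 5.57 RPM at 12 to 13 h, against 1.51 RPM, and Mal-B2 was at 2.03 RPM at 4 to 5 h, against 0 RPM in the rest of the 4 to 8 h group.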

How the results depend on the processing

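No paired analysis was possible because each library is a different stage and the labels number no replicates. Of 45 tests of a maltase gene, 13 were called. Over all genes, 675 to 2526 of 9940 were called per embryo step, and 162 of 5404 between pupae and larvae. Of the 13 maltase calls, 4 stayed called under every alternative run, namely Mal-A5 falling after 4 h, Mal-A3 and Mal-B1 rising after 12 h and Mal-A6 rising after 20 h. The share of all genes that stayed called in this way is not given here. Mal-B1 passed the filter mainly through libraries of 12 to 16 h, Mal-A3 mainly through libraries after 12 h, and Mal-A6 only through libraries after 16 h. Over all alternatives the 13 called maltase results were past the threshold in 131 values and short of it in 34, and 0 reversed. The 32 uncalled tests gave 393 values under the alternatives, and 4 passed, all of Mal-A8 at 20 to 24 h. With the compared libraries alone, 830 genes were called at 4 to 8 h (1772 in the fit of 24 libraries), 1613 at 16 to 20 h (2526) and 416 at 20 to 24 h (675), each against the previous group. With edgeR on the recovered reads, 350 were called at 20 to 24 h. Between pupae and larvae 162 genes were called, 80 without a filter on low values, and 0 with edgeR, where 785 had an unadjusted p below 0.05. Leaving out 1 library at a time gave 1146 to 2354 genes at 4 to 8 h, 1031 to 1860 at 8 to 12 h (1730), 806 to 2003 at 12 to 16 h (1557), 1714 to 3004 at 16 to 20 h, 429 to 978 at 20 to 24 h and 33 to 607 for pupae. The cause of these shifts was not tested. Median-of-ratios scaling moved the split of higher to lower calls from 1402 and 328 to 1192 and 398 at 8 to 12 h, from 1076 and 481 to 1312 and 196 at 12 to 16 h, from 844 and 1682 to 1399 and 421 at 16 to 20 h, and from 449 and 226 to 438 and 338 at 20 to 24 h. It also moved the male to female ratio of Mal-A6 to 6.63 and of Mal-A8 to 9.44. In the shallowest embryo library 3 reads amount to 4.29 RPM, so single-hour values of Mal-A2, Mal-A7, Mal-B1 and Mal-B2 lie near the limit of detection.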
